A study of Homo sapiens with 4 samples.

Results

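Ferroptosis is an iron-dependent form of cell death in which polyunsaturated fatty acids held in membrane phospholipids become oxidised. The genes described here set how much oxidisable lipid a membrane holds and how lipid radicals are quenched outside the glutathione (GSH) pathway. Long-chain acyl-CoA synthetases (ACSL1, ACSL3, ACSL4 and ACSL5) activate fatty acids, and LPCAT3 inserts the activated polyunsaturated chains into phospholipids. SCD makes monounsaturated fatty acids, which are hard to oxidise, while FADS1 and FADS2 introduce the further double bonds of polyunsaturated chains. AIFM2, also called FSP1, and DHODH reduce coenzyme Q, the first at membranes outside the mitochondria and the second in the inner mitochondrial membrane.

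The arrays were 4 single-colour Affymetrix arrays of the gastric cancer line SNU638, an established human cell line that was selected for high ACTL6A. Of these, 2 arrays held RNA from cells carrying an shRNA against ACTL6A (sh-ACTL6A) and 2 held RNA from cells carrying a scrambled shRNA (scramble). ACTL6A is an actin-related subunit of the BAF, INO80 and TIP60 chromatin complexes, and the study asked how it bears on GSH metabolism and ferroptosis. All cells had been infected with lentivirus and selected with puromycin for several days; it is not stated that the arrays of 1 group represent separate cultures, or that 1 hairpin was used for both sh-ACTL6A arrays, so every p-value reflects array-to-array spread alone, which may be technical.

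The members were taken by name, as every probe set annotated with the symbol of exactly 1 of the 10 genes. This gave 20 probe sets for 8 genes, of 19775 genes named on the array. Neither FADS1 nor ACSL3 is analysed here, because each of the 3 probe sets that name FADS1 also names a second gene, and no probe set carried the ACSL3 symbol in the table used. Of the 20 probe sets, 17 had a mean log2 signal at or above 5.63, the median over all 54613 probe sets that are not controls, and 3 lay below it. All 8 genes reached that threshold through at least 1 probe set and were therefore tested, together with 12278 other genes. Each gene was read at its probe set with the highest mean signal.

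ACTL6A read 10.16 and 10.32 on the log2 scale in sh-ACTL6A cells and 11.92 and 11.82 in scramble cells. It fell by 1.63 (SE 0.14, limma adjusted p = 0.0408), and it was the only gene called of 12286 tested (0.00814% of them). That call was lost in 5 settings with all 4 arrays, namely quantile normalisation (adjusted p = 0.052), no filter on dim genes (0.0797), no intensity trend (0.556), the methods' t-test (0.844) and every probe set tested (0.281), and without either scramble array. Of 9 epithelial markers named on the array, 8 lay above the threshold, among them EPCAM, KRT8 and CDH1, as the label of an epithelial cancer line implies. Of 8 leukocyte markers 1 did (ITGAM), and of 10 fibroblast and endothelial markers 4 did (COL1A1, DCN, THY1 and PECAM1). The summed linear signal of the leukocyte markers was 169 and 241 in sh-ACTL6A and 182 and 176 in scramble. That of the fibroblast and endothelial markers was 729 and 639 in sh-ACTL6A and 793 and 632 in scramble, so the groups overlapped for both. For the 9 epithelial markers the sums were 41715 and 48492 in sh-ACTL6A and 48354 and 56436 in scramble, a narrow overlap. Of the 8 epithelial markers tested, 6 had a difference below 0 and 2 above, and none passed.

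None of the 8 lipid genes passed the adjusted threshold in either direction. In bulk RNA, a change per cell and a change in the mix of cells cannot be told apart. LPCAT3 had the largest difference, 0.63 higher in sh-ACTL6A cells, followed by ACSL4 (0.29 higher) and SCD (0.17 higher). For these 3 genes the sh-ACTL6A arrays did not overlap the scramble arrays, a share of 37.5%, against 34.6% of all tested genes (19.3% without overlap and higher). The other 5 genes (ACSL1, ACSL5, FADS2, AIFM2 and DHODH) overlapped between groups, with differences from -0.13 to 0.05. The median difference over the 8 genes was 0.04, against 0.01 over all tested genes, and the median size of a difference, taken without its sign, was 0.09 against 0.14. At an unadjusted p under 0.05 there was 1 gene, LPCAT3, while 5.5% of all tested genes lay below that limit.

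**Figure D1:**
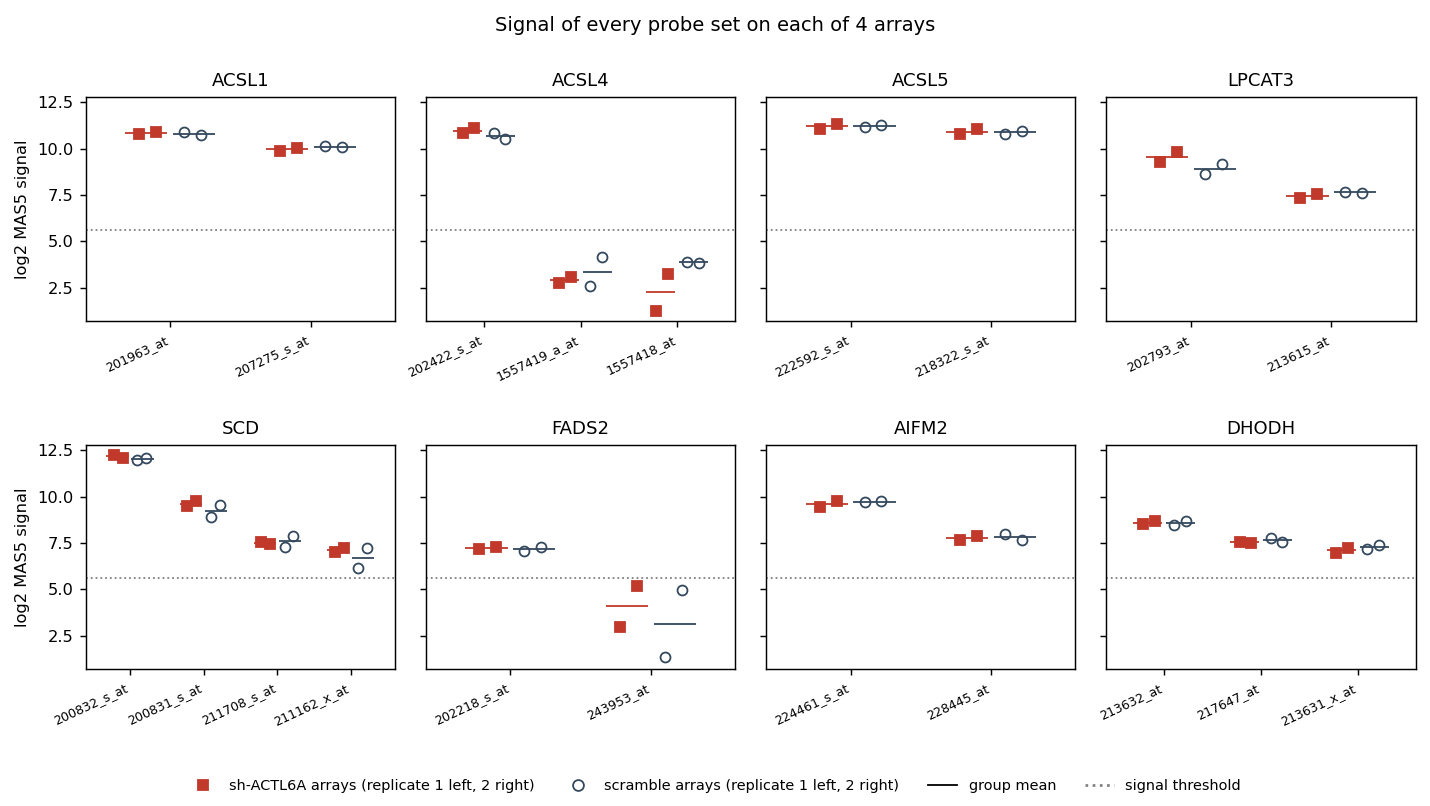
Log2 MAS5 signal (vertical axis) of the 20 probe sets of 8 lipid genes (1 panel per gene, probe sets on the horizontal axis), with filled squares for sh-ACTL6A arrays, open circles for scramble arrays, short bars for group means, and the threshold of 5.63 dotted. The group means of LPCAT3 202793_at lie farthest apart among the 17 probe sets above the threshold, 0.63 higher in sh-ACTL6A. The widest scatter within a group is at the 3 probe sets below the threshold. It is seen in both groups at FADS2 243953_at, in sh-ACTL6A only at ACSL4 1557418_at and in scramble only at ACSL4 1557419_a_at.

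ACSL4 is the synthetase that prefers arachidonic and adrenic acid, and cells that lack it resist ferroptosis. Its bright probe set (202422_s_at) read 10.83 and 11.12 in sh-ACTL6A cells, against 10.83 and 10.54 in scramble cells. The lower sh-ACTL6A array and the higher scramble array were thus level to the second decimal, and the gap between groups came from replicate 2 of each. The difference was 0.29 ± 0.17 (SE, limma adjusted p = 0.918), a fold of 1.23 with a 95% confidence interval of 0.932 to 1.61. The means were 10.97 ± 0.21 (SD, n = 2) in sh-ACTL6A and 10.68 ± 0.20 (SD, n = 2) in scramble, so each group spread by nearly as much as the groups differed. The other ACSL4 probe sets pointed the opposite way but lay far below the threshold. The first (1557418_at) read 1.26 and 3.26 in sh-ACTL6A cells and 3.91 and 3.85 in scramble cells. The second (1557419_a_at) read 2.78 and 3.06 in sh-ACTL6A cells and 2.59 and 4.17 in scramble cells. Their differences of -1.62 ± 0.98 (SE) and -0.46 ± 0.92 (SE) had an adjusted p of 0.960 and 0.977 over all probe sets in limma. Averaging the 3 probe sets turned the gene's difference to -0.60 (adjusted p = 0.985).

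ACSL1 and ACSL5, which activate saturated and unsaturated long-chain fatty acids more broadly, were bright in both groups, and their brightest probe sets overlapped between groups. ACSL1 read 10.79 and 10.91 in sh-ACTL6A cells and 10.88 and 10.74 in scramble cells at 201963_at. The groups interleaved, and the difference was 0.04 ± 0.14 (SE, 95% confidence interval -0.29 to 0.36). At its further probe set (207275_s_at) both sh-ACTL6A arrays lay below both scramble arrays, with 9.89 and 10.04 against 10.12 and 10.08, a difference of -0.14 ± 0.13 (SE). The sign of the ACSL1 difference thus depended on the probe set. ACSL5 read 11.06 and 11.35 in sh-ACTL6A cells and 11.17 and 11.26 in scramble cells at 222592_s_at, so that the scramble arrays lay inside the sh-ACTL6A range. The difference was -0.01 ± 0.15 (SE, 95% confidence interval -0.36 to 0.33), and the further probe set (218322_s_at) gave 0.04 ± 0.14 (SE), also with overlap. At these brightest probe sets the interval of the fold lay between 0.780 and 1.29 for both genes, and in the fit over probe sets it ran from 0.729 to 1.14 at ACSL1 207275_s_at.

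LPCAT3 is the acyltransferase that places arachidonoyl and linoleoyl chains in phosphatidylcholine and phosphatidylethanolamine. At its bright probe set (202793_at) it read 9.28 and 9.84 in sh-ACTL6A cells, against 8.65 and 9.20 in scramble cells. Both sh-ACTL6A arrays were higher than both scramble arrays, though the gap between the nearest arrays was small beside the gap between replicates, which was 0.56 in sh-ACTL6A and 0.55 in scramble. The means were 9.56 ± 0.40 (SD, n = 2) and 8.92 ± 0.39 (SD, n = 2). The difference of 0.63 ± 0.26 (SE) is a fold of 1.55 with a 95% confidence interval of 1.03 to 2.34, and it did not pass (limma unadjusted p = 0.0394, adjusted p = 0.885). The dimmer LPCAT3 probe set, which is also above the threshold, went the other way. There 213615_at read 7.37 and 7.55 in sh-ACTL6A cells and 7.67 and 7.62 in scramble cells, with no overlap and a difference of -0.19 ± 0.23 (SE). Over both probe sets the mean difference was 0.22. Without sh-ACTL6A replicate 1, LPCAT3 differed by 0.92 (adjusted p = 0.0386), in a fit that called 401 genes, leaves 1 sh-ACTL6A array and assumes that it varies like the scramble pair. It did not pass on leaving out any other array, with 0.35 without sh-ACTL6A replicate 2, 0.36 without scramble replicate 1 and 0.91 without scramble replicate 2.

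**Figure D2:**
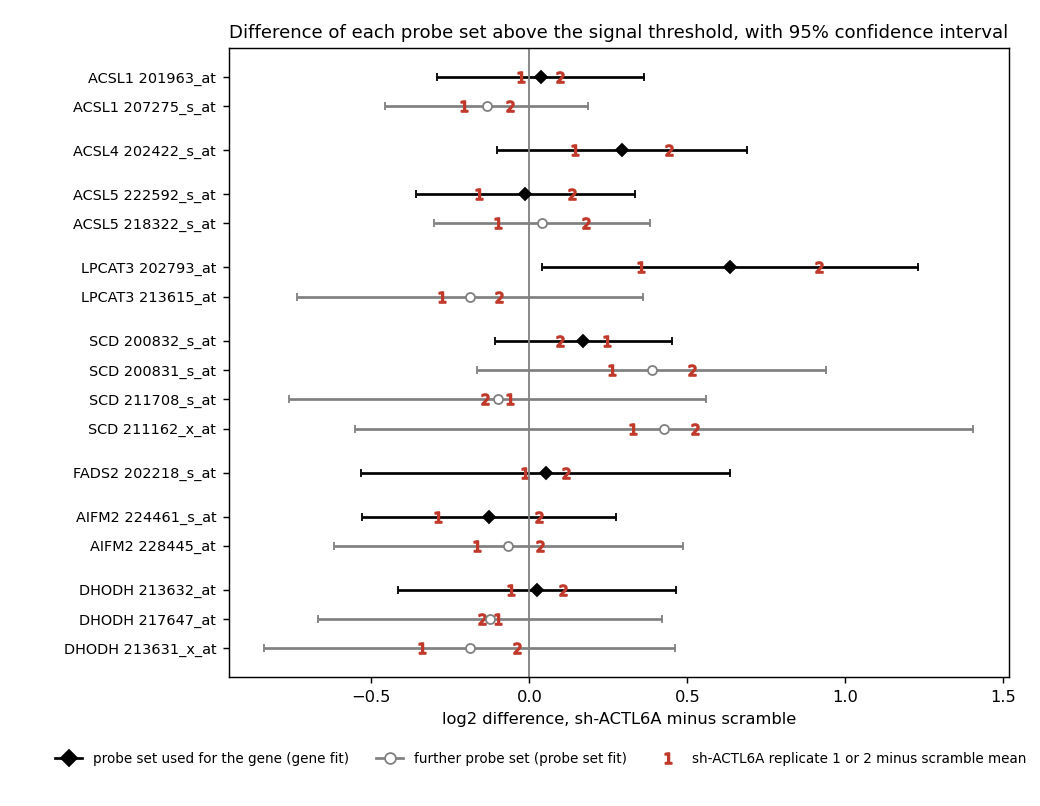
Log2 difference, sh-ACTL6A minus scramble (horizontal axis), of the 17 probe sets above the signal threshold (vertical axis), with 95% confidence intervals, filled diamonds for the probe set used for a gene, open circles for further probe sets, and the digits 1 and 2 for each sh-ACTL6A replicate minus the scramble mean. Diamonds come from the fit over genes and circles from the fit over all probe sets. Among the intervals drawn, only that of LPCAT3 202793_at leaves out 0 (0.04 to 1.23 in the fit over genes, 0.01 to 1.26 in the fit over probe sets), and the further LPCAT3 probe set lies on the other side of 0.

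SCD, the stearoyl-CoA desaturase that makes oleic and palmitoleic acid, had 4 probe sets above the threshold. Its brightest (200832_s_at) read 12.25 and 12.11 in sh-ACTL6A cells and 11.95 and 12.07 in scramble cells. The groups did not overlap, but sh-ACTL6A replicate 2 and scramble replicate 2 lay close together. The difference was 0.17 ± 0.12 (SE, limma adjusted p = 0.932), a fold of 1.12 with a 95% confidence interval of 0.927 to 1.37. At 200831_s_at the arrays read 9.49 and 9.75 in sh-ACTL6A cells and 8.93 and 9.54 in scramble cells, a difference of 0.39 ± 0.23 (SE). At 211162_x_at they read 7.02 and 7.22 against 6.15 and 7.23 in scramble, a difference of 0.43 ± 0.41 (SE). In both of these, scramble replicate 1 was the low array and the other 3 were closer together. The remaining probe set, 211708_s_at, read 7.53 and 7.45 in sh-ACTL6A cells and 7.30 and 7.88 in scramble cells, so that the sh-ACTL6A arrays lay between the scramble arrays, with a difference of -0.10 ± 0.28 (SE). None of them passed.

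FADS2, the delta-6 desaturase that starts the conversion of linoleic acid to longer polyunsaturated acids, had 1 probe set above the threshold. It read 7.15 and 7.28 in sh-ACTL6A cells and 7.06 and 7.27 in scramble cells, which overlapped. The difference was 0.05 ± 0.25 (SE), and its interval of -0.53 to 0.64 is wide, so that folds between 0.691 and 1.55 could not be told from no change. The other FADS2 probe set (243953_at) read 2.99 and 5.17 in sh-ACTL6A cells and 1.33 and 4.98 in scramble cells. Replicate 2 exceeded replicate 1 there by 2.18 in sh-ACTL6A and 3.65 in scramble, far more than the difference between groups (0.93 ± 1.39, SE).

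AIFM2, which reduces coenzyme Q and vitamin K at the plasma membrane and lipid droplets, read 9.44 and 9.76 in sh-ACTL6A cells and 9.70 and 9.75 in scramble cells at 224461_s_at. One sh-ACTL6A array was the lowest of the 4 and the other the highest. The difference was -0.13 ± 0.17 (SE, 95% confidence interval -0.53 to 0.27, limma adjusted p = 0.963). The further AIFM2 probe set (228445_at) read 7.67 and 7.87 in sh-ACTL6A cells and 7.999 and 7.68 in scramble cells, a difference of -0.07 ± 0.23 (SE). On both probe sets sh-ACTL6A replicate 1 was the array below the scramble mean, with differences of -0.29 and -0.17 from it, and replicate 2 lay 0.03 above it.

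DHODH, the fourth enzyme of pyrimidine synthesis, passes electrons to coenzyme Q in mitochondria. It read 8.51 and 8.67 in sh-ACTL6A cells and 8.46 and 8.68 in scramble cells at 213632_at, and the sh-ACTL6A arrays lay inside the range of the scramble arrays. The difference was 0.02 ± 0.19 (SE, 95% confidence interval -0.42 to 0.46). At 217647_at the arrays read 7.56 and 7.51 in sh-ACTL6A cells and 7.75 and 7.56 in scramble cells, without overlap, a difference of -0.13 ± 0.23 (SE). At 213631_x_at they overlapped, with 6.95 and 7.25 against 7.17 and 7.41 in scramble and a difference of -0.19 ± 0.27 (SE). As with ACSL1, the brightest probe set and the dimmer ones had opposite signs, and each of the 3 differences was smaller than its standard error.

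Over the 17 probe sets above the threshold, 9 differences were above 0 and 8 below, with a median of 0.02, against 0.01 over the 27307 probe sets that reached it. The groups did not overlap for 35.3% of the 17, against 33.4% of the 27307 and 33.8% of all 54613 probe sets. No probe set on the array passed when each was tested on its own (0% called by limma), while 5.01% had an unadjusted p under 0.05, LPCAT3 202793_at among them. Of the 6 genes with more than 1 probe set above the threshold, AIFM2 kept 1 sign on all of them, while ACSL1, ACSL5, LPCAT3, SCD and DHODH did not in the deposited values, although ACSL5 also kept 1 sign after median centring and DHODH after quantile normalisation.

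The arrays of a group also differed between replicates. Replicate 2 read higher than replicate 1 in sh-ACTL6A for 7 of the 8 genes (all but SCD) and in scramble for 6 of 8 (all but ACSL1 and ACSL4). It was higher in both groups for 5 of 8 genes, or 62.5%, against 24.5% of all tested genes; with members chosen by name and 4 arrays this is given without a test. The median gap, replicate 2 minus replicate 1, was 0.23 in sh-ACTL6A and 0.11 in scramble over the 8 genes, against -0.01 and -0.02 over all tested genes. The 13 lipogenic transcription regulators tested had medians of 0.43 in sh-ACTL6A and 0.12 in scramble, the highest of the 9 pathway lists described below. The 111 tested genes of these lists together had medians of -0.03 in sh-ACTL6A and -0.01 in scramble. Coenzyme Q synthesis and vitamin K reduction had -0.23 and -0.07. A measure of RNA quality moved with the replicate number as well. For the ACTB control, the 3′ probe set minus the 5′ probe set gave 1.21 on sh-ACTL6A replicate 1 and 0.78 on replicate 2, and 1.63 on scramble replicate 1 and 0.78 on replicate 2. For the GAPDH control the same subtraction gave 0.22 and 0.07 in sh-ACTL6A, and 0.29 and 0.10 in scramble. GAPDH thus moved in the same direction as ACTB but by less. The part of RNA quality in the gaps of the lipid genes was not tested.

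**Figure D3:**
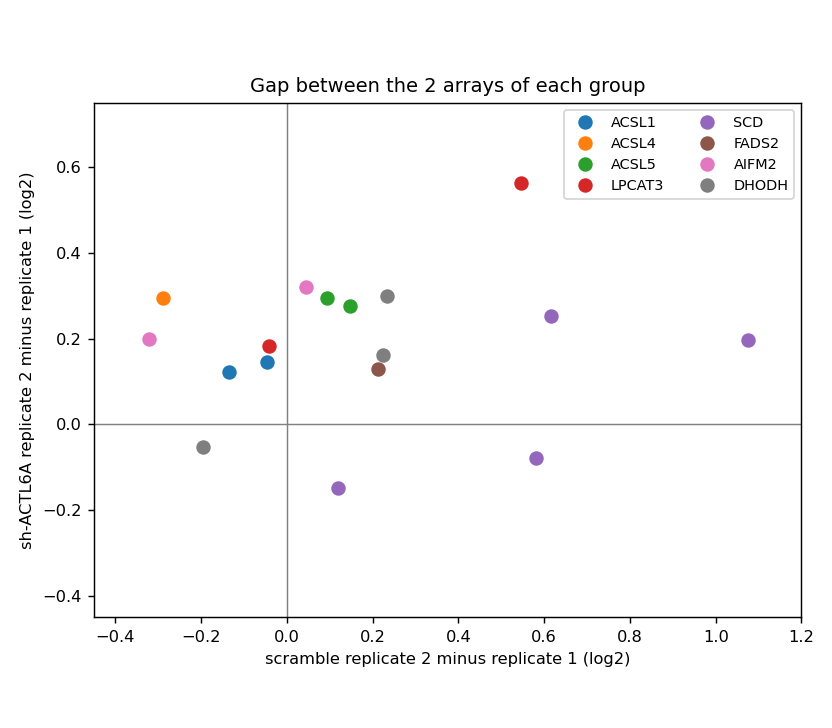
Gap between arrays of a group, replicate 2 minus replicate 1 on the log2 scale, in sh-ACTL6A (vertical axis) and scramble (horizontal axis) for the 17 probe sets above the signal threshold, coloured by gene. For 9 of the 17, replicate 2 was higher in both groups, and the bright LPCAT3 probe set lies at 0.56 and 0.55.

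The study examined the transcription factor NRF2 together with ACTL6A. The promoters of the 10 genes were therefore searched for a loose core of the antioxidant response element that NRF2 binds (TGANNNNGC, either strand). The window ran from 250 bases before to 50 bases after the RefSeq start site. LPCAT3 and AIFM2 held a match, 2 of 10 genes, where 41.8% of all 35116 promoters of that length did. The matches are shown because these are the 2 genes that held one. They come from RefSeq on GRCh38.p14, read 5′ to 3′ on the gene's strand (minus for both), at chr12:7018551-7018579 for LPCAT3 and chr10:70132829-70132857 for AIFM2, with the matched letters in capitals. The AIFM2 match lies on the opposite strand of the gene.
LPCAT3: aataacggggTGAGCTGGCgccgcggggc
AIFM2: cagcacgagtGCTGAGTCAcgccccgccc
The first matched base lies 93 bases before the start site in LPCAT3 and 22 bases before it in AIFM2. A sterol response element of the form TCACNCCAC, the kind SREBP binds at lipogenic genes, was matched in 0 of the 10 promoters and in 1.13% of all promoters. The CCAAT box was matched in 4 of 10 (ACSL3, LPCAT3, SCD and DHODH), against 34.6% of all. A match is a run of letters only, and these data hold no measure of binding.

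The neighbouring pathways were followed through 9 gene lists, of which 111 of 144 genes were tested, 53 with a difference above 0 and 58 below. None passed the adjusted threshold. At an unadjusted p under 0.05 there were 4 (PEX7, COQ10B, UPP1 and PCBD1), where 5.5% of all tested genes lay below that limit. The lists had medians between -0.11 and 0.15.

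Among enzymes that act beside the ACSL family and LPCAT3, the other acyl-CoA synthetases and fatty acid carriers had a median of -0.04 (12 tested, 5 above 0 and 7 below). ACSF3, the mitochondrial malonyl-CoA synthetase, differed by -0.47 ± 0.32 (SE), ACBD3 by -0.23 ± 0.16 (SE) and ACSF2 by -0.43 ± 0.37 (SE). With all probe sets averaged ACSF3 differed by -0.23. The other phospholipid remodelling enzymes had a median of 0.08 (15 tested, 10 above 0 and 5 below). LPCAT1, which makes saturated phosphatidylcholine, read 12.34 and 12.52 in sh-ACTL6A cells against 12.20 and 12.27 in scramble cells (0.19 ± 0.12, SE). PLA2G4A, the phospholipase that releases arachidonic acid, read 10.40 and 10.18 against 10.15 and 9.90 in scramble (0.27 ± 0.17, SE). PNPLA6 differed by 0.38 ± 0.30 (SE) with overlap. The LPCAT1 and PLA2G4A arrays did not overlap between groups, and neither gene passed (adjusted p = 0.918 and 0.919). Overlap was absent for 4 of the 15 genes, or 26.7%, against 34.6% of all tested genes.

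Fatty acid synthesis, the other desaturases and the elongases had a median of -0.003 (18 tested, 8 above 0 and 10 below). The elongases ELOVL3 and ELOVL7 differed by 0.47 ± 0.22 (SE) and -0.27 ± 0.14 (SE), and DEGS1, the dihydroceramide desaturase, by 0.17 ± 0.13 (SE), each without overlap. They were the only 3 of the 18 genes without overlap, or 16.7%, against 34.6% of all tested genes. With all probe sets averaged DEGS1 differed by 0.09. Regulators of lipogenic transcription had the highest median, 0.15 (13 tested, 9 above 0 and 4 below). Here PPARA differed by 0.61 ± 0.38 (SE), with overlap and a mean of 0.03 over all its probe sets, PPARD by -0.38 ± 0.21 (SE), or -0.20 over all its probe sets, and INSIG1, which retains the SREBP complex in the endoplasmic reticulum, by 0.29 ± 0.19 (SE).

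Of 15 lipid peroxidation enzymes, 9 reached the threshold, with a median of -0.03. SAT1, a polyamine acetyltransferase linked to lipoxygenase activity, differed by -0.26 ± 0.14 (SE), the reductase CYB5R1 by 0.27 ± 0.17 (SE) and CYBB by -0.43 ± 0.42 (SE). With all probe sets averaged CYB5R1 differed by -0.51 and CYBB by 0.33. Ether lipid and peroxisome genes, which supply plasmalogens that can be oxidised, had the lowest median, -0.11, with 11 of 12 below 0. Of all 12286 tested genes, 5913 were below 0. The groups did not overlap for 33.3% of the 12, against 34.6% of all tested genes. PEX7, the import receptor for the ether lipid enzyme AGPS, read 8.88 and 8.77 in sh-ACTL6A cells and 9.49 and 9.39 in scramble cells, a difference of -0.61 ± 0.17 (SE, limma adjusted p = 0.653). SELENOI and PEX3 differed by -0.19 ± 0.13 (SE) and -0.15 ± 0.14 (SE). With all probe sets averaged PEX7 differed by -0.29 and SELENOI by 0.09.

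The pathways around AIFM2 and DHODH likewise held no call. Coenzyme Q synthesis and vitamin K reduction had a median of 0.02 (17 tested, 9 above 0 and 8 below). COQ10B, a coenzyme Q carrier, read 10.33 and 11.37 in sh-ACTL6A cells and 11.64 and 11.57 in scramble cells, so that its difference of -0.76 ± 0.29 (SE) came mostly from sh-ACTL6A replicate 1. The kinase-like COQ8A differed by 0.36 ± 0.16 (SE) and NQO1, a quinone reductase and NRF2 target, by -0.20 ± 0.10 (SE). Averaged over all probe sets COQ10B differed by -0.25 and COQ8A by -0.09. Pyrimidine synthesis around DHODH had a median of -0.07 (8 tested, 2 above 0 and 6 below). UPP1, uridine phosphorylase, is on this list although it breaks uridine down rather than making it. It read 11.13 and 11.37 in sh-ACTL6A cells and 11.65 and 11.93 in scramble cells (-0.54 ± 0.15, SE, limma adjusted p = 0.712). UMPS and TYMS differed by -0.13 ± 0.12 (SE) and -0.11 ± 0.10 (SE), or by 0.06 and 0.007 with all probe sets averaged.

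Tetrahydrobiopterin synthesis, a further source of radical-trapping antioxidant, had a median of 0.10 (7 tested, 5 above 0 and 2 below). PCBD1, which recycles the cofactor, read 10.76 and 10.77 in sh-ACTL6A cells and 11.35 and 11.16 in scramble cells, a difference of -0.49 ± 0.14 (SE, limma adjusted p = 0.698). GCHFR, the feedback regulator of the first enzyme, differed by 0.44 ± 0.20 (SE), and PCBD2 by 0.38 ± 0.20 (SE), or -0.49 with all its probe sets averaged.

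**Figure D4:**
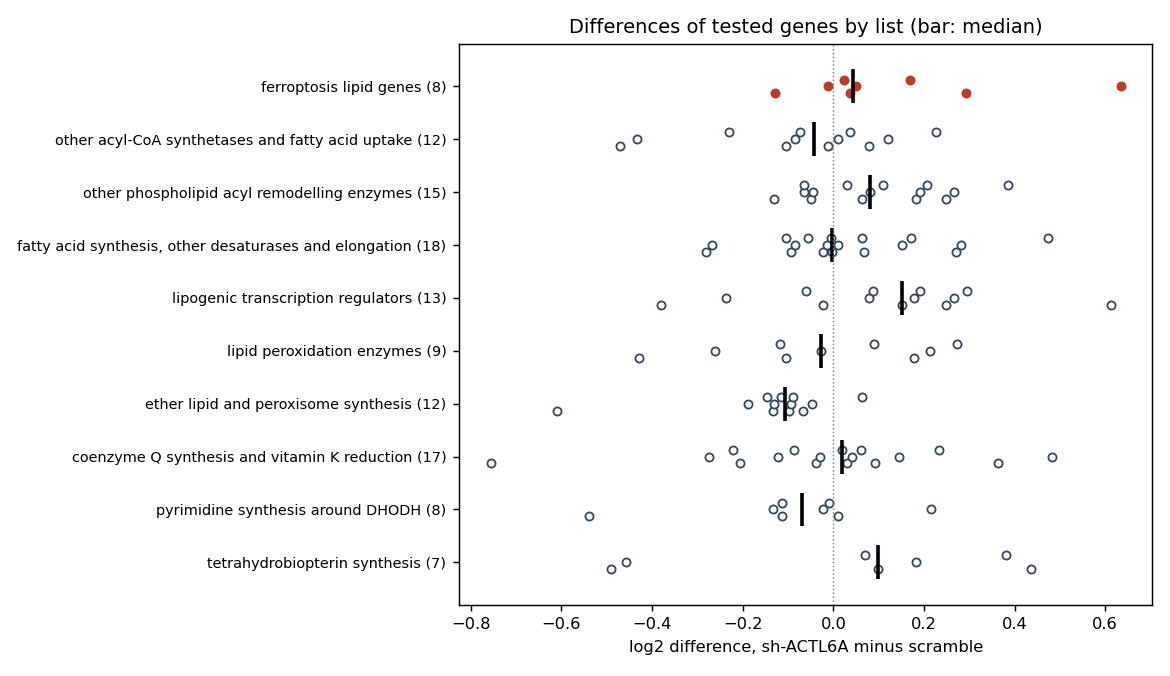
Log2 difference, sh-ACTL6A minus scramble (horizontal axis), of each tested gene (points) by list (vertical axis, with the number tested in brackets) and a bar at each list's median; the 8 lipid genes are in the top row. Medians lie between -0.11 and 0.15, and LPCAT3, at 0.63, is the rightmost point of all lists shown.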

How the data were processed

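The deposited values are log2 signals on 4 arrays, made by the authors with MAS5 (version not given in the sources used here), which summarises and scales every array on its own. After trimming 2% at each end, the mean linear signal was 500.0 on all 4. The values were used as deposited. Gene names came from a platform table, in which 41091 probe sets had 1 symbol, 1801 several and 11721 none.

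Genes were read at the probe set with the highest mean and tested if it reached the 50th percentile (5.63), giving 12286 genes. Differences are sh-ACTL6A minus scramble, with two-sided tests from lmFit and eBayes (intensity trend) of limma 3.58.1, run in R 4.3.3, with Benjamini-Hochberg adjustment over all genes and a threshold of 0.05. Single probe sets were adjusted over all 54613. The fit was tested on simulated data. With 2 arrays per group, their number limits the precision. 

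The members and gene lists were chosen with earlier results of these data known. Named were ACTL6A, all members and, per pathway list, the 3 genes with the smallest unadjusted p. The alternatives changed the normalisation (quantile, median centring), the filter (none, 75th percentile), the summary of a gene (mean of all probe sets, every probe set tested), the offset (2.58 added in linear signal), the test (no trend, replicate block, the methods' t-test) and the arrays used (1 left out).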

Additional observations from a re-analysis of the deposited data

How the results depend on the processing

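No lipid gene passed in any setting with all 4 arrays. ACTL6A kept its direction throughout, with -1.64 after quantile normalisation (limma adjusted p = 0.052) and -1.63 with no filter, no intensity trend, the methods' t-test or every probe set tested, none of which called a gene (0 genes called in each of these 5 settings). With the replicate number as a block, 2 genes were called, and LPCAT3 had an adjusted p of 0.391. ACTL6A was not called without scramble replicate 1 (adjusted p = 0.9996) or without scramble replicate 2 (0.567). Leaving out 1 array moved the number of genes called between 0 and 401, ACTL6A between -1.71 and -1.55, the number of lipid genes called between 0 and 1, and their median between -0.020 and 0.14. With all probe sets averaged, FADS2 was not among the tested genes, and the median over the remaining 7 lipid genes was -0.050. The sign turned with all probe sets averaged for ACSL1 (-0.050), ACSL4 (-0.60), ACSL5 (0.013) and DHODH (-0.097), with median centring for ACSL5 (0.019, at 222592_s_at) and with quantile normalisation for DHODH (-0.0053, at 213632_at). It also turned on leaving out 1 array, with ranges of -0.031 to 0.10 for ACSL1, -0.16 to 0.13 for ACSL5, -0.055 to 0.16 for FADS2, -0.29 to 0.032 for AIFM2 and -0.089 to 0.14 for DHODH. The same ranges hold for their brightest probe sets. For further probe sets they were -1.25 to 0.33 (ACSL4 1557419_a_at), -0.10 to 0.18 (ACSL5 218322_s_at), -0.11 to 0.96 (SCD 211162_x_at), -0.39 to 0.19 (SCD 211708_s_at), -0.90 to 2.75 (FADS2 243953_at) and -0.23 to 0.094 (AIFM2 228445_at). The causes were not tested. The replicate numbers could not be shown to pair the samples (correlation of replicate gaps across genes 0.056).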
